A study of Homo sapiens with 8 samples.

Results

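The mRNAs described here encode proteins that license, fire and copy replication origins and that drive or brake the cell cycle. They were taken as a list of 53 gene symbols matched to the gene symbols of the deposited tables, out of 57978 genes present in both tables, and 52 of the 53 were high enough to test among 10100 tested genes. They were measured in HEK293T cells, a human line from embryonic kidney that makes the large T antigen of SV40 and that, in every group, expressed eIF3d-TEV. This is the cap-binding subunit d of the translation initiation factor eIF3 with a cleavage site for TEV protease, and it was pulled down with anti-HA beads. Cells spent 48 h either in glucose-free DMEM with 10% dialyzed FBS or in complete medium, DMEM with 10% FBS, before ultraviolet light of 254 nm was used to crosslink RNA and protein. After the pull-down, TEV protease cut eIF3d loose from the rest of the complex, a procedure the labels call Subunit-Seq. Libraries of polyadenylated RNA fell into 4 groups of 2: the glucose-free immunoprecipitate (IP), the glucose-free input, the complete-medium IP and the complete-medium input.

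The labels do not say whether the tagged protein replaced the cell's own eIF3d, whether the cells were a single clone, or whether replicates were separate cultures. The p-values therefore speak only to the spread among these libraries, and that spread may be technical. Untagged cells were not analysed here as an IP, so an IP level below has no bead background to be set against. An IP to input ratio describes how much of an mRNA was recovered relative to other mRNAs, not an absolute amount bound.

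As background, a replication origin is licensed in G1, when the origin recognition complex, CDC6 and CDT1 load the MCM2-7 helicase. In S phase the helicase is switched on by CDC45 and the GINS complex, and the polymerases, the sliding clamp PCNA and its loader RFC then copy the DNA. Cyclin and cyclin-dependent kinase pairs set the order of these steps: D-type cyclins with CDK4 and cyclin E with CDK2 in G1, and cyclins A and B with CDK1 up to mitosis. E2F factors switch on many of the replication genes, and p21 (CDKN1A) and p27 (CDKN1B) hold the kinases back. Large T antigen binds the retinoblastoma protein, which restrains E2F in most cells.

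The libraries held 8656921 to 43400905 reads, recovered from the deposited RPKM, a read number per length of exon and size of library. The glucose-free IPs were the shallowest, with 8656921 and 12034186 reads. The mitochondrial rRNAs took 0.615% and 0.401% of reads in the glucose-free IPs but 49.4% and 50.7% of their inputs, and 1.27% and 10.7% in the complete IPs but 39.4% and 26.8% of their inputs. For that reason levels are given here as scaled RPKM, the deposited RPKM divided by a factor per library that gives all 8 libraries the same median over the tested genes. A change therefore means a change relative to the typical tested gene. Of the kidney-line markers, NEFM lay at 1.82 to 32.8 RPKM and INA at 1.25 to 7.28 RPKM in the 8 libraries, and PAX2 at 0.0111 to 5.22 RPKM. Of 14 markers of blood, liver, fibroblasts, endothelium, epidermis, heart and pancreas, at most 2 reached 1 RPKM in any library, and their summed level was 1.90 to 10.5 RPKM. The highest were HBA1, with up to 10.0 RPKM, and COL1A1, with up to 6.24 RPKM.

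One library stood apart for these mRNAs. In complete input replicate 2, 45 of the 52 tested members were higher than in replicate 1, by a median of 0.45 on the log2 scale, and members took 0.763% of nuclear protein-coding reads there against 0.402% in replicate 1. The corresponding shares were 0.692% and 0.664% in glucose-free IP, 0.349% and 0.352% in glucose-free input, and 0.923% and 0.999% in complete IP. The median absolute difference between replicates of a member was 0.12 in the glucose-free IPs, 0.08 in the glucose-free inputs, 0.42 in the complete IPs and 0.46 in the complete inputs (log2). Results that rest on complete input replicate 2 are given below with and without it.

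The mRNA of CDT1, the loader of the MCM helicase, and that of PCNA were the most abundant members without glucose, with mean RPKM of 154 and 109.8 in the glucose-free IPs and 45.0 and 34.1 in the glucose-free inputs. In the complete IPs MKI67 came first at 163 RPKM, ahead of PCNA at 63.5. In the complete inputs CDC20, the activator of the anaphase-promoting complex, came first by the mean, at 35.1 RPKM. That rank rested on complete input replicate 2. In complete input replicate 1 CDT1 was highest at 30.7 RPKM, and CDC20 had 19.7 RPKM. These levels are per length of exon. The lowest tested member was GINS3, with a mean of 1.90 RPKM over the 8 libraries, followed by RRM2 at 2.13 RPKM. Just outside lay CCNE2, encoding cyclin E2, which averaged 0.312 RPKM and was not tested. Its scaled RPKM was 0.184 and 0.0926 in glucose-free IP, 0.295 and 0.345 in glucose-free input, 0.246 and 0.380 in complete IP and 0.329 and 0.343 in complete input.

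The first comparison asked how the level of these mRNAs in total polyadenylated RNA differed between media. Without glucose, 4 of 13 mRNAs of the replication fork, PRIM1, PCNA and the clamp loader subunits RFC3 and RFC4, were higher than in complete medium. MKI67 and the D-type cyclins CCND1, CCND2 and CCND3 were lower. In all, 8 of 52 members rose and 6 fell, against a background of 18.4% of all tested genes called higher and 15.6% called lower, so the overall share of members that changed was near that of the transcriptome. The median log2 change of the members was 0.05, and that of all tested genes was -0.04. The libraries of both media did not overlap for 33 members, 19 above and 14 below, while over all tested genes 36.3% lay above and 38.8% below. On the RPKM as deposited, whose median over the tested genes lay 0.77 (log2) lower in glucose-free input, 1 member was called higher and 9 lower. In bulk RNA, fewer cells in a phase of the cycle and less of an mRNA per cell cannot be told apart. The media also differed in serum, dialyzed FBS without glucose and FBS in complete medium. Glucose and serum therefore cannot be told apart in any difference between media.

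**Figure D1:**
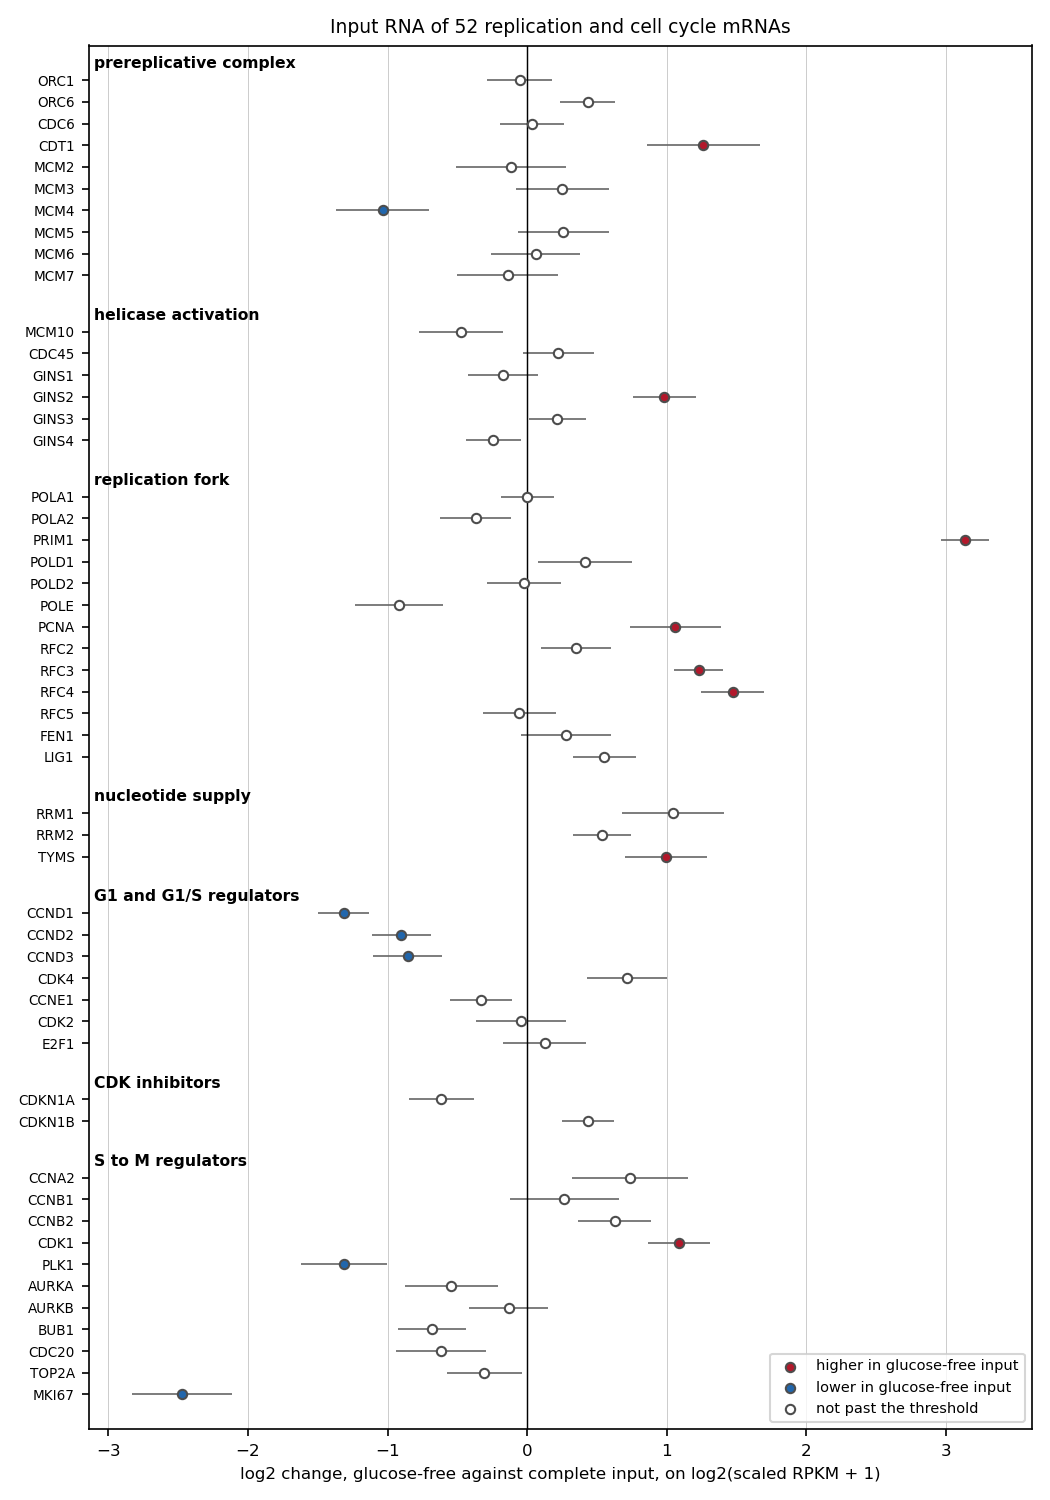
Log2 change of each tested member in glucose-free input against complete input, on log2(scaled RPKM + 1), with its standard error, 2 libraries per group. Members are grouped by role. Filled red points passed the threshold as higher, filled blue points as lower. PRIM1 lies farthest to the right at 3.14 and MKI67 farthest to the left at -2.47.

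Of the 10 genes of the prereplicative complex, CDT1 rose and MCM4, a helicase subunit, fell, and the other 8 did not pass the threshold, an adjusted p under 0.05. CDT1 stood at 130 and 125 scaled RPKM in glucose-free input, against 61.2 and 45.2 in complete input, a log2 change of 1.26 ± 0.41 (SE; limma with Benjamini-Hochberg adjustment over all tested genes, adjusted p = 0.0419). MCM4 stood at 10.3 and 10.4 in glucose-free input, against 16.1 and 30.6 in complete input, a change of -1.04 ± 0.33 (limma, adjusted p = 0.0404). Both groups were apart for each gene, but complete input replicate 2 was the higher complete library for MCM4, and without it the change was -0.60 (adjusted p = 0.12). CDT1 likewise no longer passed without complete input replicate 2 (1.05, adjusted p = 0.14). MCM2, another helicase subunit, had 19.1 and 18.3 in glucose-free input and 15.4 and 26.9 in complete input. These overlapped.

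Among the 6 genes of helicase activation only GINS2 changed. It had 41.4 and 37.8 scaled RPKM in glucose-free input, against 19.3 and 19.7 in complete input, a log2 change of 0.98 ± 0.23 (limma, adjusted p = 0.0127). At the fork, 4 of 13 genes rose and none fell. PRIM1, the catalytic subunit of primase, had 12.2 and 12.6 scaled RPKM in glucose-free input, against 0.619 and 0.442 in complete input. This was 23.4-fold by the ratio of means and 3.14 ± 0.17 on the log2 scale (limma, adjusted p = 1.01e-05), a size met by 199 of the 10100 tested genes. The complete inputs held only 24 and 15 PRIM1 reads, while the glucose-free inputs held 345 and 486.

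PRIM1 (chr12:56731596-56752373, minus strand, GRCh38, GENCODE release 29) shares 21.6% of its exon bases with other genes, among them NACA on the same strand, an abundant mRNA of the nascent polypeptide-associated complex. NACA itself stood at 171 and 165 scaled RPKM in glucose-free input, against 100 and 42.8 in complete input. How the reads of the shared bases were assigned is not given in the sources used here, and the part of NACA in the PRIM1 level was not tested. RFC4 had 8.36 and 7.83 scaled RPKM in glucose-free input, against 2.87 and 1.77 in complete input (log2 change 1.47 ± 0.23, limma adjusted p = 0.00225). RFC3 had 5.44 and 5.86 in glucose-free input, against 1.68 and 2 in complete input (1.23 ± 0.17, limma adjusted p = 0.00144). Both encode small subunits of the complex that opens the PCNA ring. The other members of that complex on the list, RFC2 and RFC5, did not pass, with changes of 0.35 and -0.06.

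PCNA had 88.3 and 105 scaled RPKM in glucose-free input, against 38.7 and 53.6 in complete input, a log2 change of 1.06 ± 0.33 (limma, adjusted p = 0.036). For nucleotide supply, TYMS, which makes the thymidylate of DNA, had 13.7 and 14.8 in glucose-free input, against 4.63 and 9.39 in complete input (0.99 ± 0.30, limma adjusted p = 0.0316). Of 8 other scalings, filters or fits, the RPKM as deposited set aside, the PCNA and TYMS rises passed in 3 and GINS2 in 6. Each rise was also lost in some fits that left out 1 library. TYMS shares 46.6% of its exon bases with ENOSF1 and TYMSOS on the opposite strand, and whether the counting used strand is not given in the sources used here. ENOSF1 had 0.659 and 0.727 scaled RPKM in glucose-free input, against 0.338 and 0.331 in complete input. RRM2, the small subunit of ribonucleotide reductase, had 3.23 and 3.66 in glucose-free input and 1.65 and 2.54 in complete input. The groups did not overlap, but the change of 0.54 did not pass (adjusted p = 0.0734).

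The D-type cyclins moved the other way. CCND1 (chr11:69641087-69654474) had 0.304 and 0.341 scaled RPKM in glucose-free input, against 1.80 and 2.87 in complete input, 7.24-fold lower by the ratio of means. Its log2 change was -1.31 ± 0.18 (limma, adjusted p = 0.00141), from 17 and 26 reads in glucose-free input and 138 and 193 reads in complete input. CCND2 had 3.09 and 3.30 in glucose-free input, against 6.05 and 7.70 in complete input (-0.90 ± 0.21, limma adjusted p = 0.0128). For CCND3 the values were 2.59 and 2.56 in glucose-free input, against 4.30 and 6.92 in complete input (-0.86 ± 0.25, limma adjusted p = 0.0287). All 3 pairs of groups were apart, and without complete input replicate 2 the CCND3 change was -0.57 (adjusted p = 0.0966).

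The kinase partner of these cyclins did not follow them. CDK4 had 36.1 and 35.6 scaled RPKM in glucose-free input, against 21.0 and 22.0 in complete input, a log2 change of 0.71 that did not pass (adjusted p = 0.0834). CDK4 shares 43.2% of its exon bases with TSPAN31 on the opposite strand, which lay at 0.267 to 1.37 scaled RPKM in the 4 inputs. CCNE1, cyclin E1, had 2.34 and 2.66 in glucose-free input and 2.81 and 4.05 in complete input, and the change of -0.33 did not pass. E2F1, the transcription factor of the G1 to S transition, had 18 in both glucose-free inputs and 18.9 and 14.2 in the complete inputs.

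Neither CDK inhibitor passed. CDKN1A had 2.38 and 2.14 scaled RPKM in glucose-free input and 3.30 and 4.78 in complete input (-0.61, adjusted p = 0.0677). CDKN1B had 1.44 and 1.69 in glucose-free input and 0.761 and 1.05 in complete input (0.43, adjusted p = 0.0993). For both genes the groups were apart, in opposite directions.

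Of the 11 S to M regulators, CDK1 rose and MKI67 and PLK1 fell. MKI67 (chr10:128096659-128126385, minus strand), which encodes the proliferation marker Ki-67, had 2.08 and 1.81 scaled RPKM in glucose-free input, against 13.3 and 17.7 in complete input. It was 7.96-fold lower by the ratio of means, a log2 change of -2.47 ± 0.36 (limma, adjusted p = 0.00164), and 25 tested genes fell as far or farther. PLK1, a mitotic kinase, had 8.55 and 7.91 in glucose-free input, against 16.2 and 29.5 in complete input (-1.31 ± 0.31, limma adjusted p = 0.0132). Without complete input replicate 2 the PLK1 change was -0.90. CDK1, the kinase that starts mitosis, had 5.03 and 5.65 in glucose-free input, against 1.66 and 2.34 in complete input (1.09 ± 0.22, limma adjusted p = 0.00784). TOP2A, the topoisomerase that untangles sister chromatids, had 3.64 and 3.68 in glucose-free input and 4.68 and 4.84 in complete input, and its change of -0.31 did not pass.

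CDK4 passed when either complete IP was left out (adjusted p of 0.03 and 0.031), CDKN1A when either complete IP or complete input replicate 1 was left out (0.0378, 0.039 and 0.0271), and RRM2 without complete input replicate 2 (0.0323). CCND2 did not pass without glucose-free input replicates 1 and 2 (adjusted p of 0.118 and 0.102), nor did PLK1 (0.0803 and 0.1), and CDK1 did not pass without glucose-free input replicate 2 (0.0723). CDT1, MCM4, CCND3 and PCNA did not pass when any of the 4 glucose-free libraries was left out (adjusted p up to 0.182, 0.18, 0.152 and 0.229), and PCNA not without complete input replicate 1 (0.0631). The PRIM1, RFC3 and RFC4 rises and the CCND1 and MKI67 falls passed in all 8 fits that left out 1 library and in every scaling and filter tried other than the RPKM as deposited. The median log2 change of members lay between -0.19 and 0.30 in these 8 fits, and that of all tested genes between -0.04 and -0.02. How many members passed moved with the library left out, and so did the share of all tested genes that passed. Leaving out an IP library changed the spread but not the input change itself, which for CDT1 stayed at 1.26 without either glucose-free IP.

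Among replication genes outside the list, 12 of 30 tested rose and 1 fell, led by POLE4, an accessory subunit of polymerase epsilon (2.50), and RPA3, a subunit of the single-strand binding protein (1.93). The one that fell was TICRR, a factor of origin firing (-1.03). The background was again 18.4% of tested genes higher and 15.6% lower. Centred after the log, 5 of the 30 rose and 0 fell, and with length and GC trends removed 8 rose and 1 fell. Among 49 other tested cell cycle genes 8 rose and 10 fell. CCNG1 (1.94) and CDC16 (1.28) rose most, and ESPL1, the protease separase (-1.69), and FOXM1, a transcription factor of mitotic genes (-1.51), fell most.

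Promoters are shown for 3 members that rose and 1 that fell, because E2F sites and the cell cycle homology region (CHR) are the textbook elements of S-phase and mitotic genes. They were picked after their values were seen. The PCNA, GINS2 and TYMS rises were lost with centring after the log and with quantile normalization. Each line gives the 150 bases before the RefSeq transcription start in GRCh38.p14, 5′ to 3′ on the gene's strand, with the motifs found in capitals: GCGGGAAA, the reverse complement of the E2F letters TTTCCCGC, the CHR letters TTTGAA, and CCAAT or its reverse complement ATTGG. The windows are chr20:5126623-5126772 (minus strand) for PCNA, chr16:85688955-85689104 (minus strand) for GINS2, chr18:657503-657652 (plus strand) for TYMS and chr10:128126424-128126573 (minus strand) for MKI67. By GENCODE, 4, 45, 49 and 0 of their bases lie in an exon of the same gene.
PCNA: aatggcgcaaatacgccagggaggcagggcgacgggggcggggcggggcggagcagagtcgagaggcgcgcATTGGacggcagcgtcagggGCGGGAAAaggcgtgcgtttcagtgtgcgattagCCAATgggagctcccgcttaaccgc
GINS2: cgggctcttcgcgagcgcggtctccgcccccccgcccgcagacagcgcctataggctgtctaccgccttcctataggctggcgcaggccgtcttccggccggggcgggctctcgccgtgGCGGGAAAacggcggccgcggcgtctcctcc
TYMS: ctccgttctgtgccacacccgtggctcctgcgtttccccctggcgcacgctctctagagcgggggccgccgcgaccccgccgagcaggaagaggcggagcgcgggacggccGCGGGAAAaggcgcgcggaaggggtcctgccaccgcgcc
MKI67: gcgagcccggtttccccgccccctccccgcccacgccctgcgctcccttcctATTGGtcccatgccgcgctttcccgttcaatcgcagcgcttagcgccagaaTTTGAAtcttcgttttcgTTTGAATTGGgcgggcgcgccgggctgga
The E2F letters start 59 bases before the transcription start in PCNA, 31 in GINS2 and 39 in TYMS. In MKI67 the CHR letters start 47 and 29 bases before the start, and the second copy shares its last base with an ATTGG.

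Promoter sequences were found for 45 of the 53 members; MCM4, MCM5, GINS4, CCND1, CCND2, CCNE2, CDK2 and AURKA had no entry. In the 250 bases before the start, on either strand, any of the E2F letters TTTGGCGC, TTTCGCGC, TTTCCCGC and TTTGCCGC stood in 13 of the 45 (28.9%), and in 2.79% of all 27305 RefSeq promoters. These letters were found in 4 of 8 prereplicative, 6 of 13 fork and 0 of 10 S to M promoters. The CHR letters stood in 6 of 10 S to M promoters and 7 of 45 member promoters (15.6%), and in 13.6% of all promoters. CCAAT stood in 10 of 10 S to M promoters and 30 of 45 in all (66.7%), and in 33% of all promoters. Of the 8 members that rose in glucose-free input 5 had the E2F letters, of the 3 with an entry that fell none had them, and of the 34 that did not pass 8 had them (23.5%). Among the rises that passed in every scaling and filter other than the RPKM as deposited, RFC3 had them and PRIM1 and RFC4 did not. The CHR letters stood in 1 of the 8 that rose (CDK1), 2 of the 3 that fell and 4 of the 34 that did not pass. A match of letters is a description and not evidence of binding.

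The next comparison asked which of these mRNAs were recovered with eIF3d in cells without glucose. In the glucose-free IP, 24 of 52 members were lower than in input, most of them from the fork (8 of 13) and the S to M group (7 of 11), and 4 were higher: MKI67, E2F1, POLE and CDKN1B. The background was 32.2% of tested genes called lower and 27.6% called higher. The median log2 change of the members was -0.62, while that of all tested genes was -0.02 and that of tested nuclear protein-coding genes was 0.06. Centred after the log, the medians were -0.28 for the members and -0.34 for all tested genes, and with quantile normalization they were 0.0262 and -0.0080, so the members were not below all tested genes under either. On the RPKM as deposited, whose median lay 2.81 (log2) higher in the glucose-free IP, the direction turned, with 47 members called higher and 0 lower. IP and input libraries, scaled, did not overlap for 48 members, of which 36 were lower and 12 higher in the IP. Over all tested genes 45.9% were lower and 44.6% higher in this sense. By role, 4 of 10 prereplicative, 2 of 6 helicase activation and 2 of 3 nucleotide supply genes fell, with none higher, while the G1 group had 1 higher and 1 lower of 7. Centred after the log, 0 of 10 prereplicative and 5 of 13 fork genes fell, and 14 of 52 members in all, against 37% of all tested genes.

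**Figure D2:**
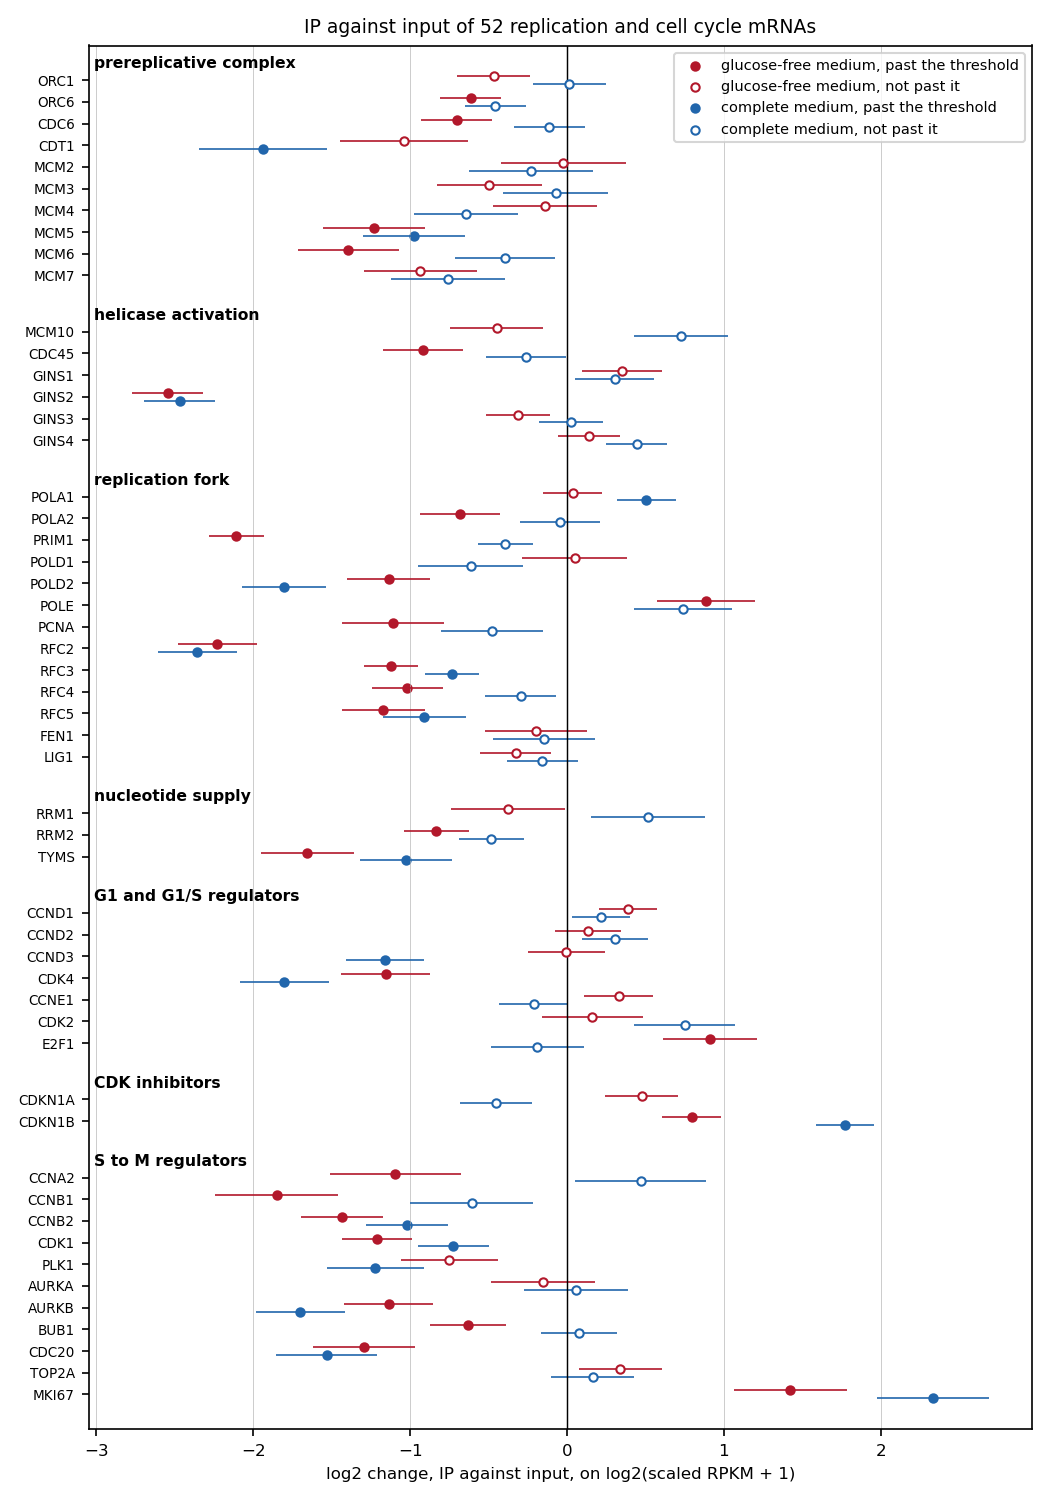
Log2 change of each tested member in IP against input, on log2(scaled RPKM + 1), with its standard error, for glucose-free medium (red) and complete medium (blue), 2 libraries per group. Filled points passed the threshold. GINS2 and RFC2 lie farthest left in both media, at -2.54 and -2.23 without glucose and -2.47 and -2.36 in complete medium, and MKI67 farthest right.

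GINS2, a subunit of the GINS complex, had 5.67 and 6.24 scaled RPKM in the glucose-free IP, against 41.4 and 37.8 in the glucose-free input, 6.65-fold lower by the ratio of means and -2.54 ± 0.23 on the log2 scale (limma, adjusted p = 4.94e-05). RFC2 (chr7:74231499-74254458, minus strand) had 11.8 and 11.3 in the glucose-free IP, against 56.7 and 59.1 in the glucose-free input (-2.23 ± 0.25, limma adjusted p = 0.000125). PRIM1 had 2.17 and 2.06 in the glucose-free IP, against 12.2 and 12.6 in the glucose-free input (-2.11 ± 0.17, limma adjusted p = 4.3e-05). For each of these fork and helicase genes both IP libraries lay far below both inputs. NACA, which shares exon bases with PRIM1, had 20.4 and 18.6 in the glucose-free IP, against 171 and 165 in the glucose-free input.

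CCNB1, cyclin B1, had 4.83 and 4.87 scaled RPKM in the glucose-free IP, against 19.8 and 20.4 in the glucose-free input (-1.85 ± 0.39, limma adjusted p = 0.00331). TYMS had 3.96 and 3.70 in the glucose-free IP, against 13.7 and 14.8 in the glucose-free input (-1.66 ± 0.30, limma adjusted p = 0.00129). PCNA had 40.9 and 47.5 in the glucose-free IP, against 88.3 and 105 in the glucose-free input (-1.11 ± 0.33, limma adjusted p = 0.017). The 4 clamp loader subunits measured were also lower in the IP, with RFC3, RFC4 and RFC5 at -1.12, -1.02 and -1.17. With length and GC trends removed, RFC2 kept its call, RFC3, RFC4 and RFC5 lost theirs, and the PCNA change turned to 0.12. Under quantile normalization the PCNA change turned to 1.31. CDK4 had 14.5 and 16.7 in the glucose-free IP, against 36.1 and 35.6 in the glucose-free input (-1.16 ± 0.29, limma adjusted p = 0.00737, but 0.27 under quantile normalization). RRM2 had 1.69 and 1.31 in the glucose-free IP, against 3.23 and 3.66 in the glucose-free input (-0.83 ± 0.21, limma adjusted p = 0.00734).

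MKI67 had 8.64 and 5.48 scaled RPKM in the glucose-free IP, against 2.08 and 1.81 in the glucose-free input (1.42 ± 0.36, limma adjusted p = 0.00797). E2F1 had 33.4 and 36.1 in the glucose-free IP, against 18 in both glucose-free inputs (0.91 ± 0.30, limma adjusted p = 0.0259). POLE, the leading-strand polymerase, had 4.99 and 3.79 in the glucose-free IP, against 2.03 and 1.78 in the glucose-free input (0.88 ± 0.31, limma adjusted p = 0.036). CDKN1B, the inhibitor p27, had 3.34 and 3.55 in the glucose-free IP, against 1.44 and 1.69 in the glucose-free input (0.79 ± 0.19, limma adjusted p = 0.00552). All 4 had both IP libraries above both inputs.

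The D-type cyclins, the other inhibitor and 3 more genes named by rule did not pass. CCND1 had 0.773 and 0.694 scaled RPKM in the glucose-free IP and 0.304 and 0.341 in the glucose-free input (0.39, adjusted p = 0.0974, and 0.024 and 0.0228 without complete input replicates 1 and 2). Centred after the log in place of scaled before it, the CCND1 change turned to -0.58 (adjusted p = 0.0251), whereas it was higher with a pseudocount of 0.1 (0.98, adjusted p = 0.0179), with length and GC trends removed (0.45, adjusted p = 0.0445), with voom (1.14, adjusted p = 0.0441) and with the fit held to the libraries compared (adjusted p = 0.00223). CCND2 had 3.78 and 3.42 in the glucose-free IP and 3.09 and 3.30 in the glucose-free input, and CCND3 had 2.62 and 2.52 in the glucose-free IP and 2.59 and 2.56 in the glucose-free input. For CCND3 these overlapped, and its change was -0.00. CDKN1A had 3.46 and 3.59 in the glucose-free IP and 2.38 and 2.14 in the glucose-free input (0.47, adjusted p = 0.104), and CCNE1 had 3.32 and 3.45 in the glucose-free IP and 2.34 and 2.66 in the glucose-free input. MCM2 (22.3 and 15.2 in the glucose-free IP, 19.1 and 18.3 in the glucose-free input) overlapped, and TOP2A (5.44 and 4.40 in the glucose-free IP, 3.64 and 3.68 in the glucose-free input) did not.

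None of the 4 higher calls and 6 of the 24 lower calls, GINS2, PRIM1, RFC2, TYMS, CCNB2 and CDK1, passed in every scaling and filter other than the RPKM as deposited and in all 8 fits that left out 1 library. The median log2 change over all tested genes was -0.03 to -0.01 when 1 glucose-free library was left out. That of members was -0.61 and -0.58 without glucose-free IP replicates 1 and 2, and -0.67 and -0.56 without glucose-free input replicates 1 and 2. E2F1, POLE and PCNA did not pass when any of these 4 was left out (adjusted p up to 0.137, 0.19 and 0.13). CDKN1B did not pass without IP replicate 2 or input replicate 1 (0.0521 and 0.0676), MKI67 not without IP replicate 1 or input replicate 2 (0.0777 and 0.0573), and RRM2 not without either replicate 2 (0.0732 and 0.0618). CDK4 did not pass without IP replicate 1 or either input (0.068, 0.0538 and 0.0505). Other replication genes gave 3 higher and 12 lower of 30, with CHAF1A (1.36), a chromatin assembly factor subunit, and TICRR (1.27) highest and RPA3 (-3.35) and POLE4 (-2.64) lowest. Other cell cycle genes gave 10 higher and 12 lower of 49, with E2F2 (1.47) and the phosphatase gene CDC25B (1.44) highest and PTTG1, securin (-2.87), and CKS2, a CDK subunit (-2.64), lowest.

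In complete medium the same comparison gave 15 members lower and 3 higher in the IP, again with GINS2 and RFC2 lowest and MKI67 highest. The background was 29.9% of tested genes called lower and 30% called higher, so the share of members that fell (15 of 52) was near it, and the share that rose (3 of 52) was under it. The median log2 change was -0.28 for members, 0.03 for all tested genes and 0.10 for tested nuclear protein-coding genes. On the RPKM as deposited, whose median lay 1.69 (log2) higher in the complete IP, 31 members were called higher and 2 lower. IP and input libraries, scaled, did not overlap for 29 members, 21 lower and 8 higher, and over all tested genes 36.1% were lower and 37.9% higher in this sense. Centred after the log, the medians were -0.12 for members and -0.10 for all tested genes. By role, 4 of 13 fork genes fell and 1 rose, 5 of 11 S to M regulators fell and 1 rose, and 2 of 7 genes of the G1 group fell.

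MKI67 had 58.5 and 113 scaled RPKM in the complete IP, against 13.3 and 17.7 in the complete input, 5.53-fold higher by the ratio of means and 2.33 ± 0.36 on the log2 scale (limma, adjusted p = 0.000631). Its ratio ranked 96 of 10100 tested genes. CDKN1B (chr12:12715058-12722371, plus strand) had 5.83 and 5.14 in the complete IP, against 0.761 and 1.05 in the complete input, 6.07-fold higher (1.77 ± 0.19, limma adjusted p = 9.09e-05). The complete inputs held only 34 and 41 CDKN1B reads, and the glucose-free inputs 47 and 75. POLA1, the catalytic subunit of polymerase alpha, had 2.03 and 2.40 in the complete IP, against 1.12 and 1.42 in the complete input (0.51 ± 0.19, limma adjusted p = 0.0443). Both IP libraries lay above both inputs for all 3 genes, but the POLA1 call was lost without any library other than complete IP replicate 1 or complete input replicate 2 (adjusted p up to 0.142). It was also lost in 7 of the other settings, among them the replicate block (adjusted p = 0.0597) and the fit held to the libraries compared (adjusted p = 0.181).

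GINS2 had 2.48 and 2.95 scaled RPKM in the complete IP, against 19.3 and 19.7 in the complete input (-2.47 ± 0.23, limma adjusted p = 5.26e-05). RFC2 had 8.07 and 7.99 in the complete IP, against 48.2 and 42.5 in the complete input (-2.36 ± 0.25, limma adjusted p = 9.86e-05). CDT1 had 19.9 and 8.39 in the complete IP, against 61.2 and 45.2 in the complete input (-1.94 ± 0.41, limma adjusted p = 0.0033). The CDT1 call was lost under quantile normalization (-0.66, limma adjusted p = 0.297). By role, 2 of 10 prereplicative and 1 of 6 helicase activation genes were lower, against 29.9% of all tested genes. POLD2, a subunit of polymerase delta, had 11.8 and 8.80 in the complete IP, against 39.5 and 36.8 in the complete input (-1.80 ± 0.27, limma adjusted p = 0.000505). CDK4 had 7.11 and 4.13 in the complete IP, against 21.0 and 22.0 in the complete input (-1.80 ± 0.29, limma adjusted p = 0.000757). CCND3, whose product partners CDK4, had 2.39 and 1.49 in the complete IP, against 4.30 and 6.92 in the complete input (-1.16 ± 0.25, limma adjusted p = 0.00365).

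The other D-type cyclins were not lower. CCND1 had 2.77 and 2.89 scaled RPKM in the complete IP and 1.80 and 2.87 in the complete input (0.22, adjusted p = 0.327), and CCND2 had 8.93 and 8.43 in the complete IP and 6.05 and 7.70 in the complete input (0.30, adjusted p = 0.236). Without complete input replicate 2 the CCND1 change was 0.45 (adjusted p = 0.0297). CDKN1A had 3.21 and 2.14 in the complete IP and 3.30 and 4.78 in the complete input. Its change was -0.45 (adjusted p = 0.117), and -0.67 without complete IP replicate 1 and without complete input replicate 1 (adjusted p of 0.0437 and 0.0417).

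The remaining genes named by rule overlapped between IP and input or did not pass. E2F1 had 17.8 and 11.4 scaled RPKM in the complete IP and 18.9 and 14.2 in the complete input, and CCNE1 had 3.27 and 2.36 in the complete IP and 2.81 and 4.05 in the complete input. PCNA had 37.9 and 27.7 in the complete IP and 38.7 and 53.6 in the complete input (-0.48, adjusted p = 0.233, but 1.41 under quantile normalization). RRM2 had 1.03 and 1.37 in the complete IP and 1.65 and 2.54 in the complete input. Its change of -0.48 did not pass (adjusted p = 0.0706), and without complete input replicate 1 it was -0.69 (adjusted p = 0.0233). MCM2 had 24.3 and 12.1 in the complete IP and 15.4 and 26.9 in the complete input, and TOP2A had 4 and 7.32 in the complete IP and 4.68 and 4.84 in the complete input, so neither was apart.

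**Figure D3:**
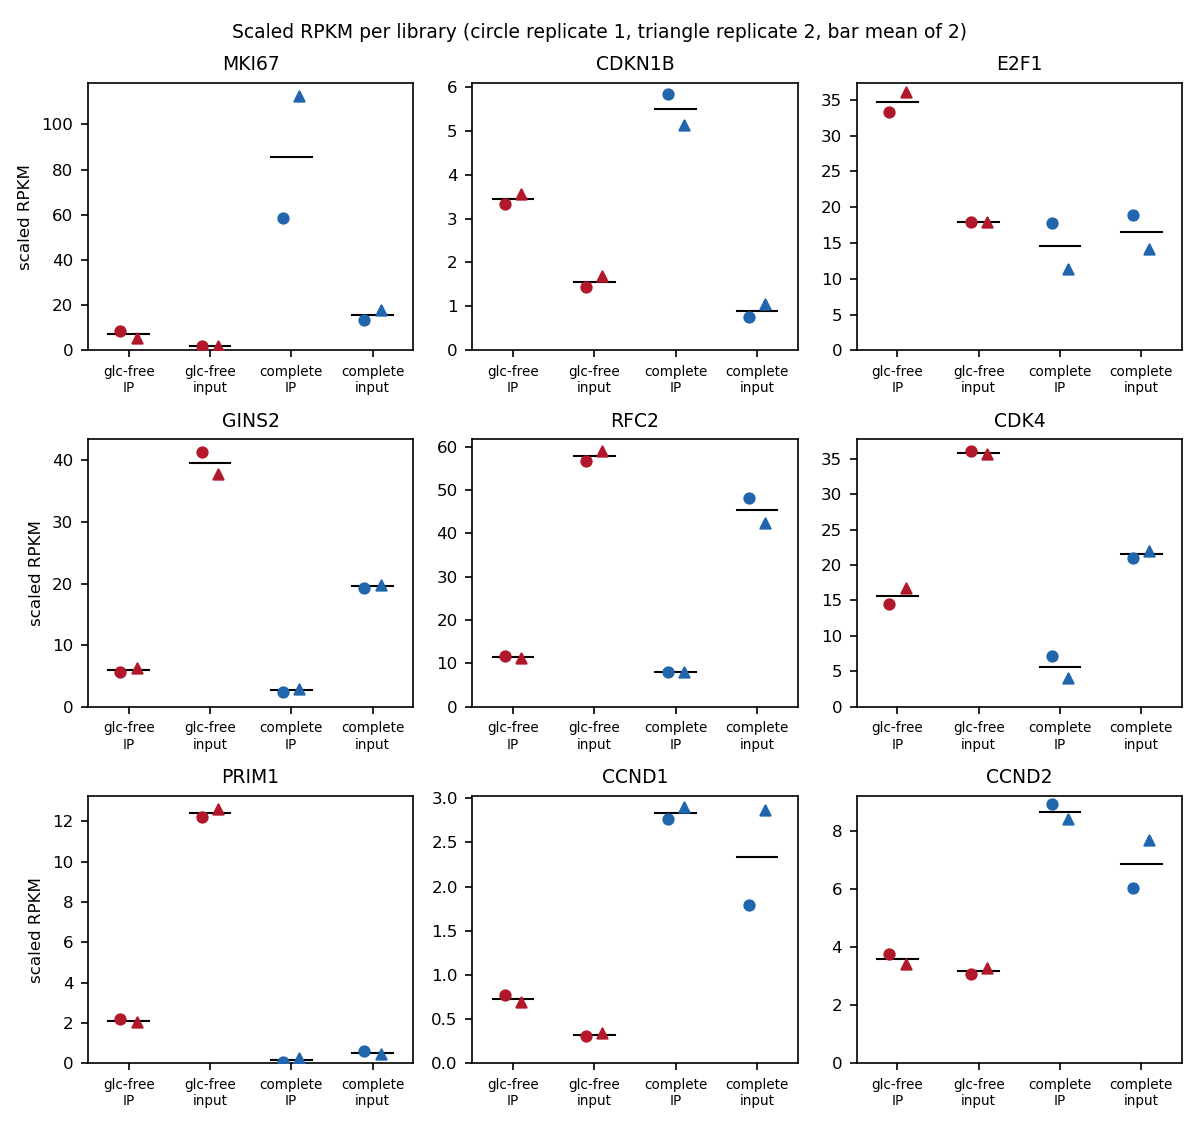
Scaled RPKM of 9 members in each library (circle replicate 1, triangle replicate 2, bar the mean of both), in the order glucose-free IP, glucose-free input, complete IP and complete input; each vertical axis starts at 0. CDKN1B lies above its input in both media, GINS2, RFC2 and CDK4 lie below theirs, and MKI67 is highest in the complete IPs at 58.5 and 113.

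MKI67 and CDKN1B among the higher calls and GINS2, POLD2, RFC2, CCND3, CDK4 and AURKB among the lower ones passed in every scaling and filter other than the RPKM as deposited and in all 8 fits that left out 1 library. Without complete input replicate 2 the median log2 change of members was -0.13, against 0.07 for all tested genes. Without complete IP replicate 1 these medians were -0.38 and 0.0065. Among other replication genes 5 were higher and 8 lower of 30, with CHAF1A (1.52) and MCM8 (1.21), a helicase of DNA repair, highest and RPA3 (-2.91) and TK1, thymidine kinase (-2.79), lowest. Among other cell cycle genes 14 were higher and 11 lower of 49, with CDKN2C (1.74), an inhibitor of CDK4, and CENPF (1.28), a kinetochore protein, highest and CKS2 (-3.39) and PTTG1 (-3.13) lowest.

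MKI67 and CDKN1B were higher in the IP in both media, 50% of the 4 higher calls without glucose and 66.7% of the 3 in complete medium. Over all tested genes the shared higher calls were 70% of those without glucose and 64.5% of those in complete medium. The lower calls shared 12 members: MCM5, GINS2, POLD2, RFC2, RFC3, RFC5, TYMS, CDK4, CCNB2, CDK1, AURKB and CDC20, 50% of the 24 without glucose and 80% of the 15 in complete medium. Over all tested genes the shared lower calls were 76.1% of those without glucose and 82% of those in complete medium. Across the 52 members the IP to input log2 ratios without glucose and in complete medium, computed from separate libraries, correlated with r = 0.727 and rho = 0.702, against r = 0.835 across all 10100 tested genes. Genes within a library are not independent, so these are descriptions.

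Whether eIF3d recovery of an mRNA differed between media was tested as the difference of its IP to input ratios, glucose-free minus complete. Of the 52 members 0 were higher and 1 was lower, against a background of 1.95% and 3.08% of tested genes, and 7 members had an unadjusted p under 0.05 (limma). By voom on recovered reads 0 members were called in either direction. The one call was PRIM1, whose change of -1.71 ± 0.25 (limma, adjusted p = 0.0106) set the IP to input change of -2.11 without glucose against -0.39 in complete medium. In the complete IPs it had 0.0838 and 0.249 scaled RPKM, from 10 and 24 reads, and in the complete inputs 0.619 and 0.442, so every value there lay under the pseudocount of 1. With a pseudocount of 0.1 the difference was -1.20 (adjusted p = 0.174), with voom on recovered reads it was -0.66 (adjusted p = 0.546), and without glucose-free IP replicate 1 or 2 it was -1.74 and -1.69 (adjusted p of 0.0584 and 0.0739).

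Several regulators showed larger differences than most members, none past the threshold. CCND3 had an IP to input change of -0.00 without glucose and -1.16 in complete medium, a difference of 1.15 ± 0.35 (limma, adjusted p = 0.0907). E2F1 had 0.91 without glucose and -0.19 in complete medium (difference 1.10 ± 0.42, limma adjusted p = 0.141). CDKN1A had 0.47 without glucose and -0.45 in complete medium (0.93, limma adjusted p = 0.12). CDKN1B went the other way, with 0.79 without glucose and 1.77 in complete medium (-0.98 ± 0.26, limma adjusted p = 0.067). Without complete IP replicate 1 these 4 passed, at 1.38, 1.40, 1.14 and -0.90 (adjusted p of 0.0292, 0.0336, 0.0356 and 0.038), and 5 members were called higher and 5 lower in all, against 10.9% of all tested genes higher and 15.5% lower in that fit. CCND3 also passed without complete input replicate 1 (1.44, adjusted p = 0.0471), and CDKN1B without complete input replicate 2 (-1.09, adjusted p = 0.0351), where 5 members were called lower.

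The remaining named genes had differences of 0.17 (CCND1), -0.17 (CCND2), 0.54 (CCNE1), 0.65 (CDK4), 0.21 (MCM2), -0.63 (PCNA), -0.35 (RRM2), -0.91 (MKI67) and 0.18 (TOP2A), none past the threshold. With 2 libraries per group these do not show that the ratios were alike: the MKI67 difference, for example, had an adjusted p of 0.276. Of the other replication genes ORC3, an origin recognition subunit, was lower (-0.94, limma adjusted p = 0.0446), and of the other cell cycle genes none was called, while 13 had an unadjusted p under 0.05.

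The members' IP to input change went with the length of their exons, which the choice of members did not use. Across the 52 members r with log2 exon length was 0.504 without glucose and 0.436 in complete medium, against 0.527 and 0.471 across all tested genes. MKI67, with 12807 bases of exon, and POLE, with 16609, were among the longest, and PCNA, with 1471, was the shortest of those named. The median exon length was 3910 bases for members and 4780 for tested nuclear protein-coding genes. In input the glucose-free against complete change went the other way with length (r = -0.536 over members, -0.405 over all tested genes). Members of longer exon length were thus relatively higher in IP and lower in glucose-free input.

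**Figure D4:**
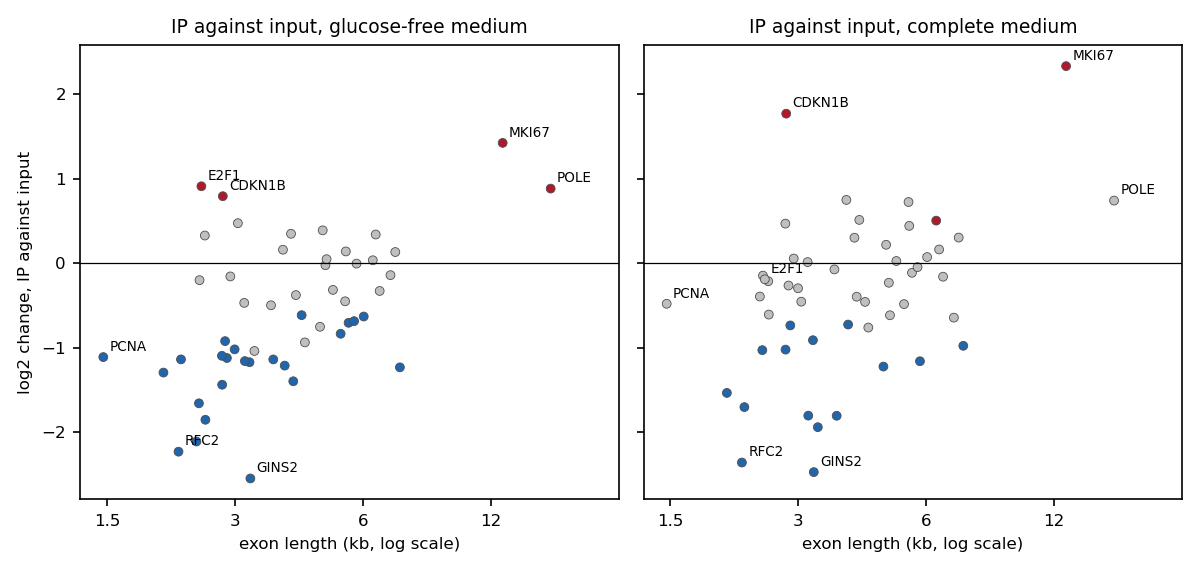
Log2 change in IP against input of each tested member (vertical axis) against its exon length in kilobases on a log scale (horizontal axis), without glucose on the left and in complete medium on the right. Red points passed the threshold as higher and blue ones as lower. Long MKI67 lies at the top of both panels, while GINS2 and RFC2, shorter, lie at the bottom, and CDKN1B stands above other members of its length.

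With smooth trends on length and GC content removed from each library, 6 members rose and 20 fell in glucose-free IP against input, 4 rose and 14 fell in complete IP, and 10 rose and 6 fell in glucose-free input. Over all tested genes 28.3% rose and 29.6% fell in the glucose-free IP. The shares were 32.8% and 27.2% in the complete IP, and 18.3% and 15.6% in glucose-free input. The median change of members was then -0.37 in the glucose-free IP and -0.12 in the complete IP, against -0.0019 and 0.11 for all tested genes. The MKI67 change was then 0.66 without glucose (adjusted p = 0.11) and 1.28 in complete medium (adjusted p = 0.00844), and POLE turned to -0.44 without glucose. CDKN1B was 2.38 in complete medium after this step (adjusted p = 3.49e-05), and GINS2 was -2.10 without glucose and -1.99 in complete medium, both past the threshold.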

How the data were processed

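RNA of the eIF3d IP and of the input was measured in 8 libraries, 2 for each of 4 groups. The authors deposited RPKM values in 2 tables, 1 per medium, and cutadapt, HISAT2, SAMtools and the build GRCh38 were used, per the submitters' processing notes. Their versions, the read counter, the annotation and the use of strand were not stated in the sources used here. The 57978 genes of both tables were joined by gene identifier, and 0 value columns were left unmapped. With exon lengths of GENCODE release 29, 97.5% to 98.0% of low RPKM values per library came out as whole reads within 0.02, and 98.3% of genes in all 8 libraries, which gave the library totals. Read totals limit precision, 3 reads being 0.0691 to 0.347 RPM (the unit without the length), and this covers counting error only.

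A gene was tested where its RPKM averaged 1 or more across the 8 libraries, which kept 10100 genes. RPKM was divided by a factor per library so that all medians over these genes were equal, and log2(value + 1) was fitted with limma 3.58.1 in R 4.3.3, 4 groups in 1 model with a trend in the prior variance. The pseudocount of 1 makes fold changes of low genes too small. Ratios of means are of scaled RPKM with no pseudocount. The threshold was a Benjamini-Hochberg adjusted p under 0.05. The smallest p of an exact two-sided permutation test of 2 libraries against 2 is 0.333, so no single-gene permutation test was run.

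The members and all gene lists were chosen with earlier results of these data known, so their directions are not independent evidence. Genes given with values were 13 fixed names (CCND1, CCND2, CCND3, CDKN1A, CDKN1B, E2F1, CCNE1, CDK4, MCM2, PCNA, RRM2, MKI67 and TOP2A) and, per comparison, the 5 largest rises and 5 largest falls past the threshold among members, and the 2 largest of each for 2 lists of other genes. GINS2, PCNA and TYMS in the input comparison, and members named for shared exons or promoters, were added after their values were seen. Promoters were read from RefSeq for GRCh38.p14. The alternatives were centring after the log, RPKM as deposited, quantile normalization, a pseudocount of 0.1, no filter, only the libraries compared, a replicate block, removal of length and GC trends, voom on recovered reads, and leaving out each library. The fit was tested on simulated data with 200 genes changed. It recovered 0 to 0.5% of 2-fold changes, depending on the comparison. Of 4-fold changes it recovered 49% to 61% in the IP and input comparisons but 0% in the ratio difference. Of 8-fold changes in the ratio difference it recovered 60.5%. The 200 changed genes were among 9616 to 9654 simulated ones, a smaller share than was called in the data. This makes the Benjamini-Hochberg threshold stricter, so the recovered shares do not give the power in the data. There, POLA1 passed at 0.51 in the complete IP and ORC6 at -0.61 in the glucose-free IP. A member that did not pass is not shown to be unchanged.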

Additional observations from a re-analysis of the deposited data

Results flagged for a closer look

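PRIM1, the catalytic subunit of primase, was the only member whose IP to input ratio differed between media by the test of the difference itself, with a log2 difference of -1.71 (glucose-free minus complete; limma, adjusted p = 0.0106, 2 libraries per group). Its ratio was lower without glucose at -2.11, against -0.39 in complete medium. The call rested on 10 and 24 reads in the complete IPs and 24 and 15 in the complete inputs. It was lost with a pseudocount of 0.1 (-1.20), with centring after the log (-0.50) and with voom on recovered reads (-0.66), and the direction turned on the RPKM as deposited (0.22). PRIM1 shares 21.6% of its exon bases with other genes, and the part of that overlap in this value was not tested.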

How the results depend on the processing

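Among 639 repeats of the named members' values under the 9 alternatives, 502 kept their direction and side of the threshold, 47 lost the call, 36 gained it and 54 changed sign. Values past the threshold were among those that changed sign. GINS2, RFC2, PRIM1, CCNB1, TYMS, CDK4, PCNA and RRM2, all called lower in the glucose-free IP, turned on the RPKM as deposited. On the RPKM as deposited, members called higher and lower numbered 47 and 0 for the glucose-free IP, 31 and 2 for the complete IP, 1 and 9 in glucose-free input, and 9 and 0 in the ratio difference. Of all calls 93.7%, 83.8%, 28.3% and 90.5% were then higher, against 46.1%, 50%, 54.1% and 38.8% after scaling. On that scale the sign turned for GINS2 (0.0703), RFC2 (0.47), PRIM1 (0.21), CCNB1 (0.68), TYMS (0.80), CCND3 (1.94), CDK4 (1.53), MCM2 (2.61), PCNA (1.65) and RRM2 (1.08) in the glucose-free IP, and for CCND3 (0.10), CDKN1A (0.83), E2F1 (1.40), CCNE1 (1.05), MCM2 (1.36), PCNA (1.16) and RRM2 (0.54) in the complete IP. It also turned for CDKN1B (-0.0019), E2F1 (-0.56), CDK4 (-0.0273) and RRM2 (-0.0353) in glucose-free input, and for PRIM1 (0.22), CCND1 (-0.0878), CCND2 (0.43), PCNA (0.49) and RRM2 (0.54) in the ratio difference. Quantile normalization turned CDK4 (0.27), PCNA (1.31), MCM2 (1.24) and CCND3 (0.011) in the glucose-free IP, PCNA (1.41), E2F1 (0.81) and MCM2 (0.93) in the complete IP, E2F1 (-0.28) in glucose-free input and CCND1 (-0.19) in the ratio difference. Removing length and GC trends turned POLE (-0.44), PCNA (0.12) and CCND2 (-4.07e-05) in the glucose-free IP, CCND2 (-0.033), CDKN1A (0.0477), E2F1 (0.43), CCNE1 (0.47), PCNA (0.60) and TOP2A (-0.11) in the complete IP, MCM2 (0.26) in glucose-free input, and CCND2 (0.033) and MCM2 (-0.15) in the ratio difference. Centring after the log turned CCND1 (-0.58), CCND3 (0.0251) and MCM2 (0.69) in the glucose-free IP, E2F1 (0.19) and MCM2 (0.16) in the complete IP, E2F1 (-0.15) in glucose-free input and CCND1 (-0.80) in the ratio difference. The cause was not tested.

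Centring after the log left 14 members lower in the glucose-free IP, 6 higher in the complete IP, 3 higher in glucose-free input, and 1 higher and 2 lower in the ratio difference, and of all calls 32.7% were higher in the glucose-free IP and 69.2% in the inputs. Over all tested genes the matching shares were 37%, 23.9%, 8.73%, 5.03% and 9.73%. Quantile normalization gave 11 lower in the glucose-free IP, 9 higher in the complete IP, 4 higher in glucose-free input, and 1 higher and 4 lower in the ratio difference. The matching shares of all tested genes were 23.6%, 32.4%, 10.3%, 7.51% and 7.96%. With no filter, 40690 genes were tested, 2 members were higher in the glucose-free IP, and 5 were higher and 3 lower in glucose-free input. Of the 40690 genes 6.23%, 4.94% and 2.05% were called in these directions. Only the libraries compared gave 9 higher for the glucose-free IP and 9 lower for the complete IP, against 39.1% and 23.6% of all tested genes. In the ratio difference 0 were lower with a pseudocount of 0.1 and with voom, and 2 with length and GC trends removed.

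Leaving out 1 library at a time gave 1 to 5 members higher and 12 to 27 lower for the glucose-free IP, 2 to 10 higher and 14 to 20 lower for the complete IP, 3 to 12 higher and 2 to 12 lower in glucose-free input, and 0 to 5 in each direction of the ratio difference. The share of all tested genes that were called moved among these fits as well. Signs turned among these fits for CCND3 (-0.0228 to 0.0158) and MCM2 (-0.28 to 0.24) in the glucose-free IP, for CCND1 (-0.0146 to 0.45), E2F1 (-0.49 to 0.11), MCM2 (-0.70 to 0.24) and TOP2A (-0.20 to 0.53) in the complete IP, for E2F1 (-0.0704 to 0.32) and MCM2 (-0.50 to 0.27) in glucose-free input, and for CCND1 (-0.0634 to 0.40), MCM2 (-0.26 to 0.68) and TOP2A (-0.19 to 0.54) in the ratio difference. The labels give the same replicate numbers to all groups without saying what they share, and deviations of same-numbered libraries correlated with r of -0.0965 to 0.135 across genes. With the replicate block 4 members rose and 24 fell in the glucose-free IP, 3 and 15 in the complete IP, 9 and 6 in glucose-free input, and 0 and 1 in the ratio difference, and of the members named by rule POLA1 lost its call in the complete IP (adjusted p = 0.0597). Genes under about 1 RPKM, such as CCNE2 and PRIM1 in complete medium and CDKN1B in the inputs, were limited by depth.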
